A study of Homo sapiens with 27 samples.

Results

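The collagen family was followed across 9 established human cell lines by poly-A RNA sequencing. Its members were taken by symbol: every protein-coding gene of GENCODE 29 named COL, a type number, A and a chain number, which gave 44 genes with 345 annotated transcripts among 34584 genes in all and 19675 protein-coding genes. The rule used no measured value. Each line was represented by 3 libraries, 27 in all. The lines, with the tissue that their labels give, were BJ (epithelial), U2-OS (bone), U251 (brain), SK-Mel 28 and SK-Mel 24 (both skin), A549 (lung), RT4 (kidney), Caco2 (colon) and HepG2 (liver). None of the lines carried a labelled treatment or engineered change. All grew with serum and streptomycin, but in different media: DMEM for A549 and BJ, EMEM for both SK-Mel lines, U251, Caco2 and HepG2, and McCoy for RT4 and U2-OS, with 10% serum throughout except for SK-Mel 24, which had 15%. A difference between lines is therefore also a difference between media where those differ, and these cannot be told apart. Nothing in the labels says whether the libraries of a line came from separate cultures, so the p-values measure the spread between these libraries only.

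Collagens are secreted or membrane-bound proteins whose chains wind around each other into a triple helix. Fibrillar collagens (types I, II, III, V, XI, XXIV and XXVII) build the banded fibres of tendon, bone, cartilage and dermis. Type IV chains form the sheet of basement membranes, type VI the beaded filaments beside cells, type VII the anchoring fibrils under skin, and types VIII and X short-chain networks. The fibril-associated collagens, known as FACIT, sit on fibril surfaces, a small group spans the cell membrane, and the multiplexins, types XV and XVIII, lie at basement membranes. Many types are assembled from different gene products, so the balance between partner chains in a cell is of interest in its own right. Fibroblasts are the cells best known for making fibrillar collagen.

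The genes for type IV chains lie in head-to-head pairs, each pair reading outward from a shared region between the start sites, and the levels of each pair across the lines are given below. Sequence from between the starts is shown for that reason, from RefSeq on GRCh38.p14, plus strand, 5′ to 3′. A promoter window was found there for 32 of the 44 members. Capitals mark the CCAAT box (letters CCAAT) and the GC box (letters GGGCGG), each searched on both strands. For COL4A1 and COL4A2 the start sites are 127 bases apart, and since 124 of the 126 bases between them lie in annotated exons, only 30 bases around each motif are printed. For the other pairs a stretch is printed as well, 111 of the 418 bases between COL4A4 and COL4A3 and 250 of the 379 bases between COL4A6 and COL4A5. The whole regions hold 2 GC boxes and no CCAAT box between COL4A4 and COL4A3, and 3 CCAAT boxes and no GC box between COL4A6 and COL4A5, so not every match is in the printed letters.
COL4A1 and COL4A2, CCAAT box, chr13:110307167-110307196: gggccgagctccCCAATttgttggcgctgc
COL4A1 and COL4A2, GC box, chr13:110307207-110307236: ccggcggtgcgcGGGCGGcgcctcaaaggg
COL4A4 and COL4A3, chr2:227164454-227164564: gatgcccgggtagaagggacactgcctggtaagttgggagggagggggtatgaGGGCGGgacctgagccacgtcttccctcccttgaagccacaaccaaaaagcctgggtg
COL4A6 and COL4A5, chrX:108439588-108439837: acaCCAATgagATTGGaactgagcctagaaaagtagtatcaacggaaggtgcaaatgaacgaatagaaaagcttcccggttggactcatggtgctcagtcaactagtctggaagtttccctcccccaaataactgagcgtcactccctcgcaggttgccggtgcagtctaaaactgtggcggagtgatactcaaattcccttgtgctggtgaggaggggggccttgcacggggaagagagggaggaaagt

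The 3 pairs differ in spacing and in base content. The COL4A4 and COL4A3 starts are 419 bases apart and those of COL4A6 and COL4A5 380 bases apart. The whole region between the starts is 80.2% G and C for COL4A1 and COL4A2, 70.1% for COL4A4 and COL4A3, and 48.5% for COL4A6 and COL4A5, while the printed stretches before COL4A3 and COL4A5 are 61.3% and 51.2%. A CCAAT box lies within 126 bases before the start in 21.1% of the 35116 RefSeq windows and a GC box in 34.6%, while within 250 bases the shares are 32% and 42.6%. Over the 111 bases directly before the start, the length of the stretch printed for COL4A3, they are 19.5% and 32.9%. That stretch itself ends further upstream of the RefSeq start of COL4A3, so it matches these windows in length and not in position. These matches describe letters and do not show that any factor binds there.

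The libraries held 15597117 to 32583547 estimated counts with a median of 26090811. In HepG2, mitochondrial transcripts took 71.1%, 33.8% and 32.6% of the counts, against 0.928% to 5.72% in the remaining 24 libraries, and this lowers every other HepG2 level in TPM. TPM is an abundance per transcript length, scaled to a fixed total over all transcripts of a library. The tissue labels were checked against lists of marker genes. BJ, labelled epithelial, had all 8 fibroblast markers higher than the average of the rest, with a summed level of 3871 to 6427 TPM per library, while 4 of 6 epithelial markers were lower and 1, KRT19, was higher at 261 ± 34.4 TPM. RT4, labelled kidney, had all 6 urothelial markers higher, with 844 to 939 TPM in sum, and the kidney tubule markers SLC12A1, UMOD and AQP2 were listed at 0. All 7 hepatocyte markers were higher in HepG2 and 5 of 6 enterocyte markers in Caco2. The lists were not particular to 1 line. Caco2 also had 6 of 7 hepatocyte and 5 of 6 urothelial markers higher, and HepG2 had 3 of 6 enterocyte markers higher. U2-OS had 7 of 8 fibroblast markers higher and 1 lower. In U251 all 5 tested astroglial markers were higher, with AQP4, an astrocyte water channel, listed at 0. SK-Mel 24 had 4 of these 5 higher, and its list summed to 6835 to 9579 TPM, against 168 to 261 TPM in U251. In U2-OS, RUNX2 and ALPL were higher among 4 tested osteoblast markers and SPP1 lower, and IBSP was listed at 0. In A549, NAPSA was higher among 3 tested lung alveolar markers, but the list summed to only 1.20 to 2.55 TPM, with the surfactant gene SFTPA1 listed at 0. All 5 smooth muscle and pericyte markers were also higher in BJ, with a sum of 342 to 1652 TPM. The part of these cell identities in the collagen levels was not tested, and in bulk RNA fewer cells of a type cannot be told apart from less RNA per cell.

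Collagen RNA was concentrated in BJ. Summed over the 44 genes it reached 8399, 18591 and 14631 TPM in the 3 BJ libraries, a mean of 13874 ± 5138 TPM (SD, n = 3, as for all errors on levels below), which is 1.39% of all TPM. U2-OS had 1200 ± 310 TPM, U251 1110 ± 99.1 TPM and SK-Mel 24 919 ± 44.0 TPM. The BJ mean was 11.6-fold that of U2-OS and made up 76.5% of the sum of the 9 line means. At the low end, SK-Mel 28 had 255 ± 60.4 TPM, A549 375 ± 54.6 TPM, Caco2 191 ± 54.6 TPM, RT4 115 ± 17.1 TPM and HepG2 96.6 ± 42.2 TPM. Without mitochondrial transcripts the HepG2 sum was 218.1 ± 33.8 TPM, above those of Caco2 at 199.5 ± 54.5 TPM and RT4 at 126 ± 18.5 TPM. Of the 44 members, 36 reached a mean of 1 TPM in some line, 29 reached 10 TPM and 14 reached 100 TPM, while 3 stood at 1 TPM or more in every line. BJ was the highest line for 15 of the 25 members that reached 20 TPM somewhere.

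**Figure D1:**
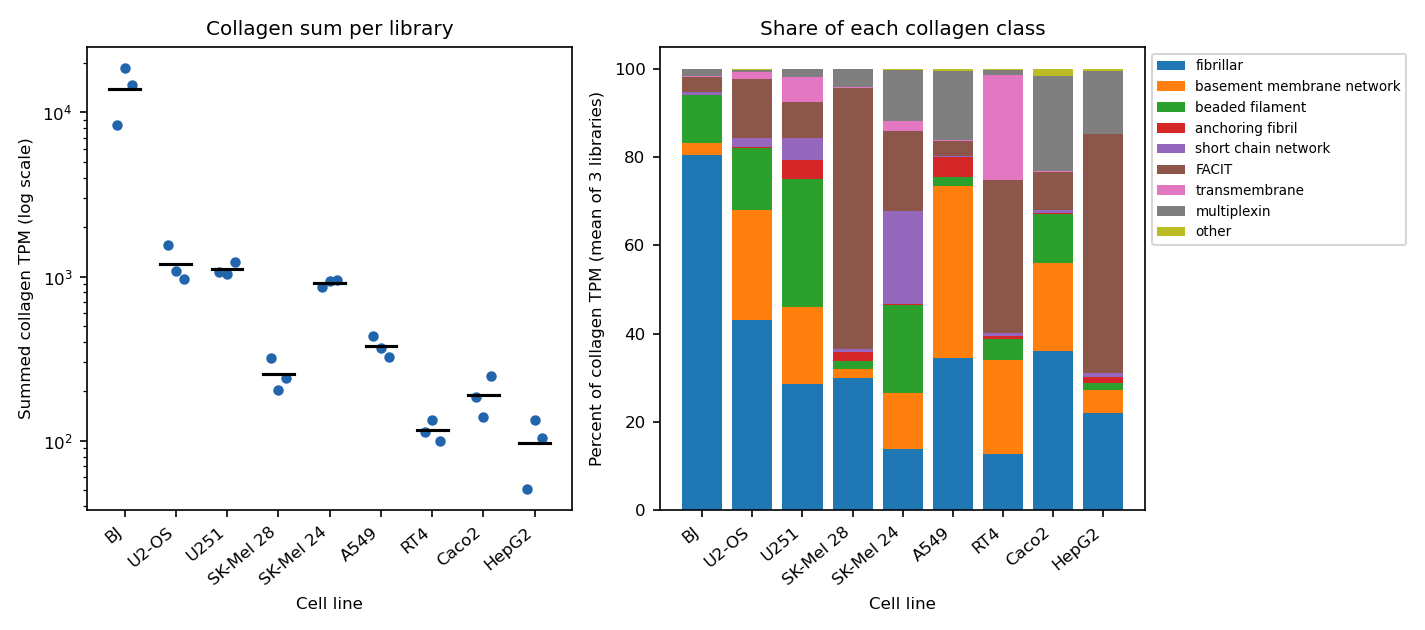
Summed collagen TPM by cell line on a log scale (left), each point a library and each line the mean of 3, and the share of each structural class in the line's collagen TPM in percent (right). BJ lies above every other line, with fibrillar chains at 80.4% of its sum, while FACIT chains hold 59.3% in SK-Mel 28 and 54.2% in HepG2. The shares include transcripts not annotated as coding.

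The lines also differed in which kind of collagen they expressed. Fibrillar chains made up 80.4% ± 5.32 of collagen TPM in BJ and 43.0% ± 13.4 in U2-OS, but 13.8% ± 1.79 in SK-Mel 24. FACIT chains led in SK-Mel 28 with 59.3% ± 3.99, in HepG2 with 54.2% ± 10.9 and in RT4 with 34.8% ± 6.28. These shares count all annotated transcripts, coding or not. Of COL9A3, the largest FACIT part in HepG2 and SK-Mel 28, transcripts not annotated as coding held 82.4% ± 2.66 and 41.4% ± 19.8. In A549 basement membrane chains held the largest share, 38.9% ± 2.74. Beaded filament chains reached 29.2% ± 5.20 in U251 and 20.0% ± 3.58 in SK-Mel 24, where the short-chain class held a further 21.2% ± 3.24. A few genes carried each profile: COL1A2 was 52.0% of the BJ sum, COL9A3 39.7% of that in SK-Mel 28 and 47.1% of that in HepG2, COL17A1 23.7% in RT4, COL18A1 21.8% in Caco2, COL5A2 25.7% in A549 and COL8A1 21.2% in SK-Mel 24.

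For tests, estimated counts were summed to genes and fitted with edgeR's quasi-likelihood method over all 27 libraries. Of the members, 38 passed the filter on low counts and were tested among 17220 genes, and every adjusted p below is from this test with Benjamini-Hochberg adjustment over all of them. A call needs an adjusted p under 0.05 and, for contrasts, at least a 2-fold difference, a log2 value of 1. The standard errors given are approximate, taken from the log2 difference and its F statistic. All 38 differed over the 9 lines, but so did 98.3% of all genes tested, so that count says little about collagens. COL10A1, COL20A1, COL23A1, COL25A1, COL6A5 and COL6A6 were not tested. Their highest line means ran from 0.0185 TPM for COL6A5 to 0.796 TPM for COL10A1, the hypertrophic cartilage collagen.

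Against the mean of the other 8 lines, 22 of the 38 members were higher in BJ (background 20.1% of all genes) and 8 lower (background 13.1%). The median log2 difference was 3.67 over members and -0.05 over all genes. The number lower in BJ was 5 without A549 replicate 2. SK-Mel 24 had 24 members higher (background 19%) and 8 lower (11.2%), with a median of 2.34 against 0.01 over all genes. U2-OS had 21 higher (25.3%) and 6 lower (10.9%) with a median of 1.56 against 0.13, and U251 had 18 higher (15%) and 8 lower (11.6%) with a median of 0.17 against -0.02.

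In the other lines more members were lower than higher. SK-Mel 28 had 7 higher (background 20.3%) and 24 lower (13.4%), and RT4 had 8 higher (18.6%) and 21 lower (14.2%). Caco2 had 6 higher (19.8%) and 17 lower (13.9%), A549 had 14 higher (18.4%) and 17 lower (10.8%), and HepG2 had 9 higher (25.8%) and 17 lower (23.5%). Some members had no count at all in a line, 12 such cases in all, and their fitted values are no bounds. With those members set at 3 counts over the line, the medians were -2.28 in SK-Mel 28, -2.36 in RT4, -2.28 in Caco2, -1.31 in A549 and -1.23 in HepG2, against fitted medians of -2.41, -2.60, -2.38, -1.4998 and -1.62. The members higher in RT4 were COL17A1, COL22A1, COL24A1, COL9A2 and 4 of the basement membrane chains, COL4A3, COL4A4, COL4A5 and COL4A6. The members higher in HepG2 were COL2A1, COL4A5, COL4A6, COL9A1, COL9A2, COL9A3, COL16A1, COL18A1 and COL27A1. The fitted counts are scaled between libraries by TMM and TPM is not, so HepG2 can stand higher among the lines on fitted counts than in TPM.

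**Figure D2:**
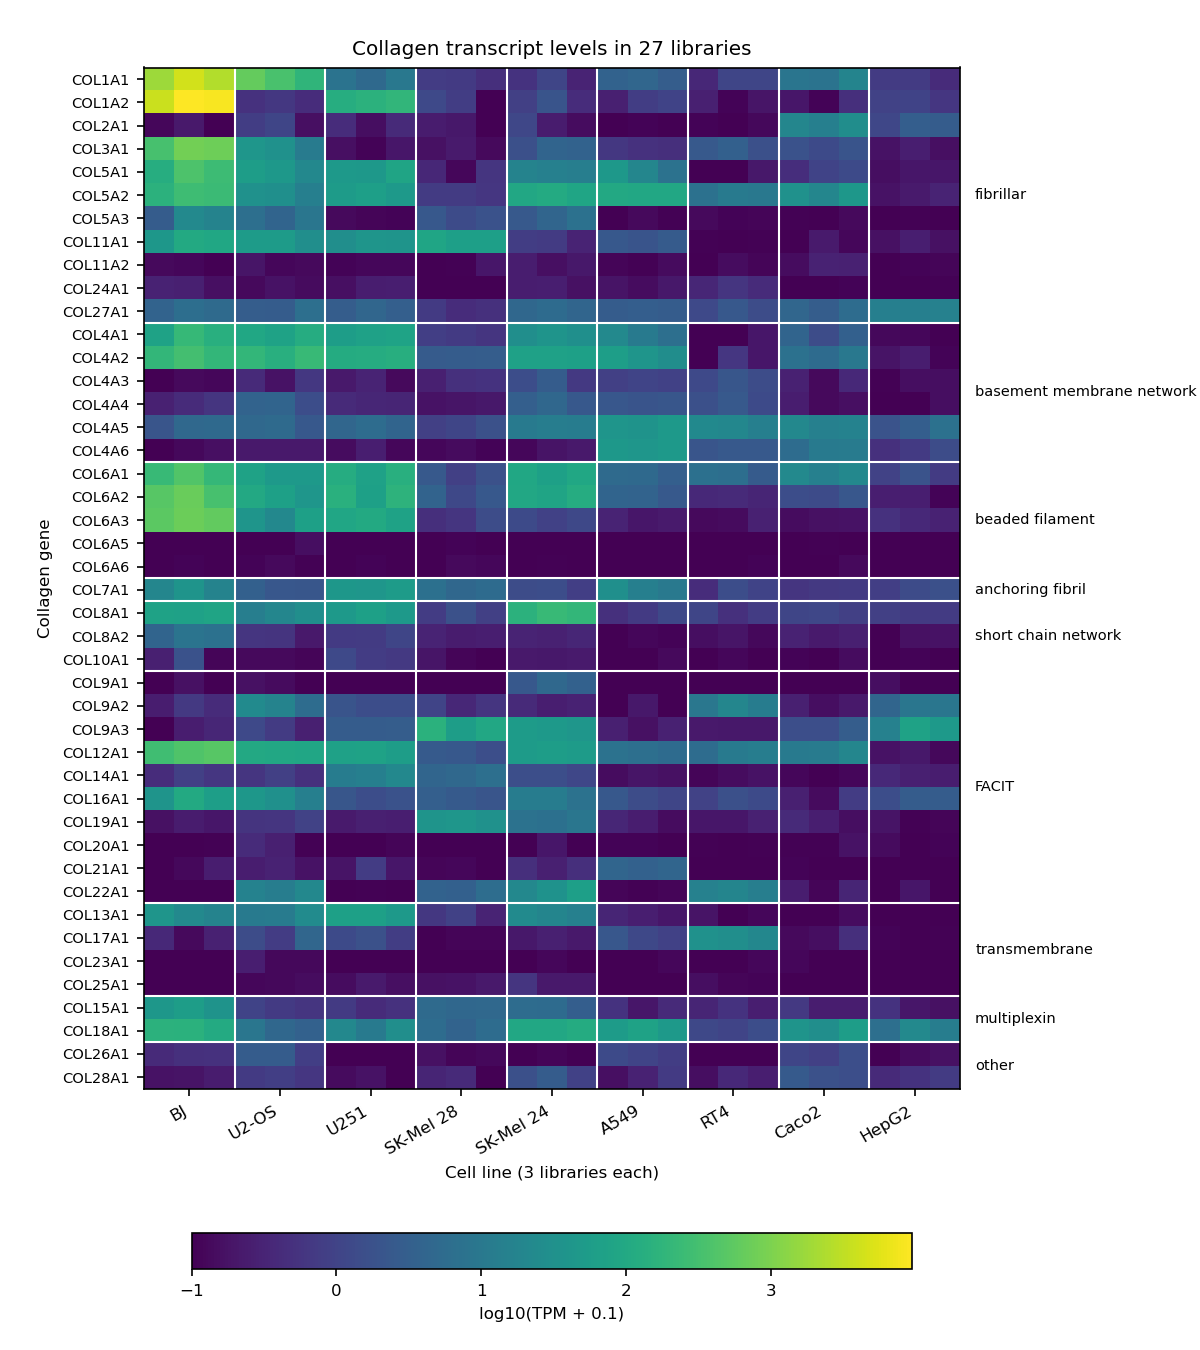
Levels of the 44 collagen genes in each of the 27 libraries, grouped by cell line, as colour on a log10(TPM + 0.1) scale, with genes ordered by structural class down the page. BJ has the highest type I values (means of 2877 TPM of COL1A1 and 7215 TPM of COL1A2), and COL9A3, COL11A1 and COL19A1 stand out in SK-Mel 28.

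Type I collagen, the main fibre of bone, skin and tendon, is built from COL1A1 and COL1A2. COL1A1 reached 1799, 4325 and 2506 TPM in BJ, against 618, 359 and 176 TPM in U2-OS, and lay between 0.208 and 17.8 TPM in the other 21 libraries. COL1A2 reached 3772, 9447 and 8427 TPM in BJ, against 123, 160 and 190 TPM in U251, with 0 to 1.89 TPM in the other 21. BJ was highest for both chains with no overlap, but the next line was a different one for each. The margin was 14.3-fold for COL1A1 over U2-OS (log2 3.84 ± 0.65 SE, adjusted p = 0.000152) and 47.2-fold for COL1A2 over U251 (5.56 ± 0.70, adjusted p = 2.72e-06). COL3A1, the type III chain of pliable tissues, had 337, 811 and 771 TPM in BJ, against 41.9, 33.2 and 11.9 TPM in U2-OS and 0.0140 to 3.95 TPM in the other 21 libraries. Its margin over U2-OS was 35.9-fold (5.16 ± 0.47, adjusted p = 1.24e-08).

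Type V and type XI chains, which start fibrils and limit their width, were spread over more lines. COL5A1 had 127, 389 and 263 TPM in BJ, 47.6, 44.4 and 79.5 TPM in U251, 58.3, 45.0 and 21.4 TPM in U2-OS, 44.5, 19.4 and 7.55 TPM in A549, and 17.0, 14.3 and 13.4 TPM in SK-Mel 24, with 0 to 1.21 TPM in the other 12 libraries. BJ exceeded U251 (log2 1.86 ± 0.50, adjusted p = 0.00296), while U251 and U2-OS did not differ beyond their spread (0.65 ± 0.48, adjusted p = 0.276). COL5A2 was the more widespread chain. It had 161, 272 and 247 TPM in BJ, 98.5, 94.8 and 95.2 TPM in A549, 96.9, 111 and 83.0 TPM in SK-Mel 24, 54.5, 63.4 and 49.6 TPM in U251, 32.4, 19.0 and 43.3 TPM in Caco2 and 33.5, 30.1 and 13.9 TPM in U2-OS, with 0.0719 to 11.0 TPM in the other 9. A549 and SK-Mel 24 were level for it (0.05 ± 0.24, adjusted p = 0.881). COL5A3, the third type V chain, had 2.77, 22.0 and 16.9 TPM in BJ, its highest line.

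COL11A1 did not follow the order of type I. It had 42.4, 103 and 90.4 TPM in BJ, 84.6, 64.9 and 63.4 TPM in SK-Mel 28, 52.7, 53.5 and 28.0 TPM in U2-OS and 28.8, 38.6 and 36.9 TPM in U251, with 0 to 2.59 TPM in the other 15 libraries. BJ and SK-Mel 28 overlapped and did not differ beyond their spread (0.13 ± 0.26, adjusted p = 0.705), and SK-Mel 28 exceeded U251 (0.91 ± 0.26, adjusted p = 0.00502). COL2A1, the cartilage collagen, was highest in the colon line, with 19.0, 14.3 and 27.1 TPM in Caco2, against 1.02, 2.96 and 2.70 TPM in HepG2 and 0 to 1.05 TPM in the other 21 libraries. The gap was smaller on fitted counts, where Caco2 exceeded HepG2 for COL2A1 by 1.13 ± 0.42 on the log2 scale (adjusted p = 0.0232). COL27A1, a fibrillar chain of developing cartilage, was highest in the liver line, with 14.2, 13.8 and 15.4 TPM in HepG2, against 3.80, 6.11 and 5.26 TPM in BJ, and the 24 libraries outside HepG2 ran from 0.335 to 6.37 TPM. On fitted counts COL27A1 was 16.6-fold higher in HepG2 than in BJ (4.05 ± 0.34, adjusted p = 1.82e-09). COL11A2 and COL24A1 stayed low, with highest line means of 0.145 TPM in Caco2 and 0.352 TPM in RT4.

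The basement membrane chains split by gene pair. COL4A1 had 74.9, 214 and 138 TPM in BJ, 92.4, 74.3 and 121 TPM in U2-OS, 58.2, 69.6 and 78.5 TPM in U251, 28.7, 37.0 and 29.5 TPM in SK-Mel 24, 21.8, 11.3 and 6.35 TPM in A549 and 3.99, 1.32 and 3.29 TPM in Caco2, with 0 to 0.750 TPM in the other 9. COL4A2 had 197, 303 and 198 TPM in BJ, 194, 138 and 220 TPM in U2-OS, 114, 118 and 129 TPM in U251, 69.6, 69.2 and 66.5 TPM in SK-Mel 24, 61.7, 39.8 and 26.8 TPM in A549 and 7.22, 5.33 and 9.89 TPM in Caco2, with 0 to 2.83 TPM in the other 9. The 9 lines fell in the same order for both. BJ exceeded U2-OS for COL4A1 (1.11 ± 0.43, adjusted p = 0.0277) and for COL4A2 (1.00 ± 0.39, adjusted p = 0.0289), although their TPM ranges overlapped, and U2-OS and U251 did not differ beyond their spread for COL4A1 (0.24 ± 0.42, adjusted p = 0.659) or COL4A2 (0.33 ± 0.39, adjusted p = 0.4997).

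The COL4A5 and COL4A6 pair, which belongs to the chains used in mature kidney and epithelial basement membranes, was highest in A549. COL4A5 had 38.5, 36.1 and 49.3 TPM in A549, 23.1, 19.8 and 14.2 TPM in RT4, 20.9, 14.3 and 15.9 TPM in Caco2 and 11.3, 12.8 and 12.0 TPM in SK-Mel 24, with 0.769 to 6.93 TPM in the other 15 libraries. On fitted counts HepG2 stood between RT4 and Caco2 for COL4A5 and did not differ beyond its spread from RT4 above it (RT4 over HepG2 0.10 ± 0.26, adjusted p = 0.779) or Caco2 below it (HepG2 over Caco2 0.17 ± 0.26, adjusted p = 0.601). COL4A6 had 45.6, 41.6 and 49.5 TPM in A549, against 5.76, 10.7 and 11.5 TPM in Caco2 and 0 to 2.36 TPM in the other 21 libraries. The A549 libraries stood clear of all others for both genes. A549 exceeded the next line for COL4A5, RT4, by 1.26 ± 0.26 on the log2 scale (adjusted p = 0.000273) and the next line for COL4A6, Caco2, 5.28-fold (2.40 ± 0.32, adjusted p = 9.70e-06). COL4A3 and COL4A4, mutated in Alport kidney disease as COL4A5 is, stayed low. SK-Mel 24 was the highest line for each, with 1.41, 2.66 and 0.577 TPM of COL4A3 and 3.17, 4.41 and 2.29 TPM of COL4A4.

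Type VI chains were highest in BJ and next in U251. COL6A1 had 222, 422 and 206 TPM in BJ, 123, 69.2 and 138 TPM in U251, 91.6, 66.6 and 89.9 TPM in SK-Mel 24, 72.6, 46.0 and 48.7 TPM in U2-OS and 22.2, 14.6 and 20.6 TPM in Caco2, with 0.627 to 6.71 TPM in the other 12. COL6A2 had 481, 698 and 337 TPM in BJ, 146, 67.7 and 161 TPM in U251, 98.0, 81.1 and 119 TPM in SK-Mel 24 and 100, 65.9 and 41.5 TPM in U2-OS, with 0.0130 to 3.92 TPM in the other 15. COL6A3, the long chain of the type VI monomer, had 525, 714 and 612 TPM in BJ, 89.3, 105 and 75.1 TPM in U251 and 38.6, 21.3 and 66.7 TPM in U2-OS, with 0.0327 to 1.35 TPM in the other 18. The BJ libraries lay above all others for each of these chains. Their margins over U251 were 4.97-fold for COL6A2 (2.31 ± 0.43, adjusted p = 0.000406) and 8.12-fold for COL6A3 (3.02 ± 0.44, adjusted p = 2.03e-05). The COL6A2 margin fell just under 4-fold without BJ replicate 2 or without U251 replicate 2, to log2 values of 1.98 in both cases.

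COL7A1, which forms anchoring fibrils in skin, had 42.9, 41.2 and 52.6 TPM in U251, 18.9, 38.3 and 17.0 TPM in BJ, 29.3, 14.0 and 10.1 TPM in A549 and 6.74, 4.39 and 5.45 TPM in SK-Mel 28, with 0.321 to 3.23 TPM in the other 15 libraries. U251 and BJ did not differ beyond their spread on fitted counts (0.68 ± 0.32, adjusted p = 0.0808). COL8A1, a short-chain collagen of vessel walls and the cornea, was highest in SK-Mel 24 with 156, 229 and 200.5 TPM, followed by BJ with 74.7, 71.0 and 79.5 TPM, U251 with 46.9, 66.8 and 49.0 TPM and U2-OS with 13.6, 18.8 and 28.3 TPM. The other 15 libraries held 0.382 to 1.58 TPM. SK-Mel 24 exceeded BJ by 0.83 ± 0.28 on the log2 scale (adjusted p = 0.0146). Its partner COL8A2 was enriched in BJ at a far lower level, with 3.92, 8.29 and 7.20 TPM, against 0 to 1.02 TPM in the other 24 libraries, 10.3-fold over U251 (3.37 ± 0.47, adjusted p = 9.85e-06).

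Among FACIT members, COL12A1, which binds the surface of type I fibrils, was the most abundant. It had 275, 401 and 475 TPM in BJ, 102, 95.8 and 86.5 TPM in U2-OS, 71.0, 75.0 and 59.5 TPM in U251, 54.7, 58.1 and 53.3 TPM in SK-Mel 24, 10.5, 11.6 and 19.4 TPM in Caco2 and 5.70, 10.6 and 12.6 TPM in RT4, with 0.0302 to 7.42 TPM in the other 9. The BJ margin over U2-OS was 4.51-fold (2.17 ± 0.30, adjusted p = 9.03e-06) and had a log2 value of 1.98, just under 4-fold, without BJ replicate 3. COL16A1 had 37.2, 104 and 62.2 TPM in BJ, 42.7, 30.7 and 13.8 TPM in U2-OS and 12.0, 12.3 and 7.51 TPM in SK-Mel 24, with 0.0379 to 3.09 TPM in the other 18. BJ exceeded U2-OS for it (1.45 ± 0.39, adjusted p = 0.00234) with overlapping TPM ranges. COL14A1 was highest in U251, with 12.2, 14.2 and 21.2 TPM, against 4.11, 4.72 and 6.38 TPM in SK-Mel 28, which did not overlap (1.58 ± 0.37, adjusted p = 0.000956).

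Several FACIT chains were near silent in BJ and high elsewhere. COL9A3, a chain of the type IX collagen of cartilage, had 149, 58.0 and 97.7 TPM in SK-Mel 28, 54.7, 48.1 and 41.8 TPM in SK-Mel 24 and 15.4, 72.7 and 48.4 TPM in HepG2, with 0 to 2.89 TPM in the other 18 libraries. On fitted counts HepG2 came first for COL9A3, without a difference beyond the spread over SK-Mel 28 (0.14 ± 0.38, adjusted p = 0.758). COL19A1, a rare chain of muscle and neuronal basement membrane zones, had 37.6, 40.1 and 33.2 TPM in SK-Mel 28, against 7.29, 6.72 and 8.99 TPM in SK-Mel 24 and 0.00657 to 0.867 TPM in the other 21. Both genes were thus found in both lines labelled skin, and COL19A1 was 6.04-fold higher in SK-Mel 28 than in SK-Mel 24 (2.59 ± 0.43, adjusted p = 0.000118). COL22A1, found at tissue junctions such as that of muscle and tendon, had 21.0, 34.6 and 63.4 TPM in SK-Mel 24, 15.4, 17.9 and 13.3 TPM in RT4, 15.8, 12.7 and 21.3 TPM in U2-OS and 3.50, 3.19 and 5.94 TPM in SK-Mel 28, with 0 to 0.226 TPM in the other 15. SK-Mel 24 exceeded RT4 for it (1.74 ± 0.34, adjusted p = 0.000147), and RT4 and U2-OS did not differ beyond their spread (0.03 ± 0.34, adjusted p = 0.961).

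The remaining type IX chains had patterns of their own. COL9A2 had 24.1, 17.1 and 5.71 TPM in U2-OS, 9.48, 18.8 and 12.1 TPM in RT4 and 4.11, 8.80 and 8.74 TPM in HepG2, with 0 to 1.86 TPM in the other 18. On fitted counts HepG2 came first and exceeded RT4 by 1.03 ± 0.37 (adjusted p = 0.0171), so the order of the lines for COL9A2, as for COL9A3 and COL4A5, was not the same on the 2 scales. COL9A1 had 2.26, 4.74 and 3.38 TPM in SK-Mel 24, against 0 to 0.0699 TPM in the other 24 libraries. Its margin over HepG2 was 29.8-fold (4.90 ± 0.96, adjusted p = 0.00645), but DESeq2 gave an adjusted p of 1 for the same margin. COL21A1, a FACIT chain of vessel walls, had 4.15, 3.42 and 4.05 TPM in A549, against 0 to 0.674 TPM in the other 24. The COL21A1 margin was 26.2-fold over SK-Mel 24 (4.71 ± 0.50, adjusted p = 1.57e-06). With the numbers after P in the titles as a replicate block, its log2 value was 1.14 and it was not called.

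Of the transmembrane members, COL17A1, the hemidesmosome collagen that ties epithelial cells to the basement membrane, was enriched in RT4 with 33.2, 29.1 and 19.7 TPM, against 0 to 4.36 TPM in the other 24 libraries. The margin was 22.1-fold over A549 (4.47 ± 0.53, adjusted p = 7.20e-07). COL13A1, found at cell adhesions and the neuromuscular junction, had 66.7, 65.9 and 47.2 TPM in U251, 39.3, 21.5 and 16.9 TPM in BJ, 24.3, 18.2 and 14.6 TPM in SK-Mel 24 and 10.8, 11.7 and 24.7 TPM in U2-OS, with 0 to 0.813 TPM in the other 15. U251 exceeded BJ for COL13A1 (1.00 ± 0.32, adjusted p = 0.0111), and BJ and SK-Mel 24 overlapped (0.63 ± 0.32, adjusted p = 0.106).

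The multiplexins differed in breadth. COL18A1, the source of the fragment endostatin, had 158, 153 and 112 TPM in BJ, 94.3, 95.9 and 117 TPM in SK-Mel 24, 53.4, 72.1 and 48.3 TPM in A549, 37.999, 28.4 and 58.8 TPM in Caco2, 20.8, 11.0 and 28.2 TPM in U251 and 6.53, 22.2 and 13.0 TPM in HepG2, with 0.959 to 8.99 TPM in the other 9. BJ and SK-Mel 24 did not differ beyond their spread for it (0.58 ± 0.44, adjusted p = 0.288). COL15A1 had 43.1, 59.0 and 36.5 TPM in BJ, against 5.19, 4.44 and 4.78 TPM in SK-Mel 28, 5.74, 5.50 and 2.90 TPM in SK-Mel 24 and 0.0655 to 0.888 TPM in the other 18. BJ stood 12.0-fold above SK-Mel 28 for COL15A1 (3.59 ± 0.37, adjusted p = 8.72e-08). The 2 members outside these classes, COL26A1 and COL28A1, had highest line means of 2.03 TPM in U2-OS and 1.85 TPM in Caco2.

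In all, 14 of the 38 members were enriched in 1 line, that is, higher than in every other line and at least 4-fold above the next, against a background of 14.1% of all genes. Of these, 8 were enriched in BJ, where the background is 1.77%: COL1A1, COL1A2, COL3A1, COL6A2, COL6A3, COL8A2, COL12A1 and COL15A1. Another 2 were enriched in A549 (COL21A1 and COL4A6; background 0.836%), and RT4 (2.07%), SK-Mel 28 (1.25%), SK-Mel 24 (0.929%) and HepG2 (3.82%) had 1 each, and U2-OS (1.91%), U251 (0.314%) and Caco2 (1.18%) had none. Without the BJ libraries, an alternative chosen after seeing the data, 9 members were enriched. The share of all genes enriched in that fit was not counted, so this number cannot be set against a background.

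Chains that assemble into one protein were not always found together. Among 10 partner pairs, 42 combinations of pair and line had at least 1 chain at a mean of 10 TPM, and in 24 of them the chains differed at least 4-fold. Entry needed 1 high chain, which favours unequal pairs, and no other gene pairs were counted for comparison. COL11A1 with COL11A2 and COL8A1 with COL8A2 entered in 4 lines each, always at least 4-fold unequal. COL11A2 had a highest line mean of only 0.145 TPM. COL1A1 and COL1A2 parted most plainly in U2-OS, with 384 ± 222 TPM of COL1A1 and 0.427 ± 0.105 TPM of COL1A2. In U251 it was COL1A2 that led, at 158 TPM against 7.51 TPM of COL1A1, or 21.0-fold, and in BJ COL1A2 exceeded COL1A1 2.51-fold. Over the 9 line means the chains of type I had a Pearson correlation of 0.63 and a Spearman correlation of 0.05, and without BJ the Pearson value was 0.07. These line means share their libraries and depth between genes, and the correlations are given as description.

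The head-to-head neighbours COL4A1 and COL4A2, whose shared region is printed in part above, were the most closely matched pair. They had a Pearson correlation of 0.99 and a Spearman correlation of 1 over the 9 lines, and the Pearson value without BJ was 0.99. Their levels were not equal: mean COL4A2 exceeded mean COL4A1 in each line, 1.63-fold in BJ, 1.92-fold in U2-OS and 3.25-fold in A549. On protein-coding transcripts alone Caco2 had 2.84 TPM of COL4A1 and 2.53 TPM of COL4A2. COL4A5 and COL4A6 correlated at 0.82, but SK-Mel 24 held 12.0 TPM of COL4A5 against 0.0761 TPM of COL4A6. COL4A3 and COL4A4 correlated at 0.75 (Spearman 0.63) at low levels, with 1.55 TPM of COL4A3 and 3.29 TPM of COL4A4 in SK-Mel 24, 1.51 and 1.71 TPM in RT4, 0.854 and 2.01 TPM in A549 and 0.306 and 3.00 TPM in U2-OS, and neither chain reached 1 TPM in the other 5 lines. For type V (0.80), COL5A1 exceeded COL5A2 1.14-fold in BJ, whereas COL5A2 exceeded COL5A1 4.04-fold in A549, 6.502-fold in SK-Mel 24 and 38.4-fold in Caco2. COL6A1 and COL6A2 correlated at 0.92 and COL6A1 and COL6A3 at 0.77, with SK-Mel 24 holding 80.2-fold more COL6A1 than COL6A3.

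COL9A2 and COL9A3 had no shared pattern, with a correlation of -0.06. COL9A3 exceeded COL9A2 178-fold in SK-Mel 28, 218.5-fold in SK-Mel 24 and 6.31-fold in HepG2, whereas COL9A2 exceeded COL9A3 121-fold in RT4 and 24.1-fold in U2-OS. On protein-coding transcripts alone the HepG2 chains were about level, with 6.80 TPM of COL9A2 and 7.74 TPM of COL9A3. COL8A1 exceeded COL8A2 924-fold in SK-Mel 24. COL11A2 remained low in every line where COL11A1 was high.

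**Figure D3:**
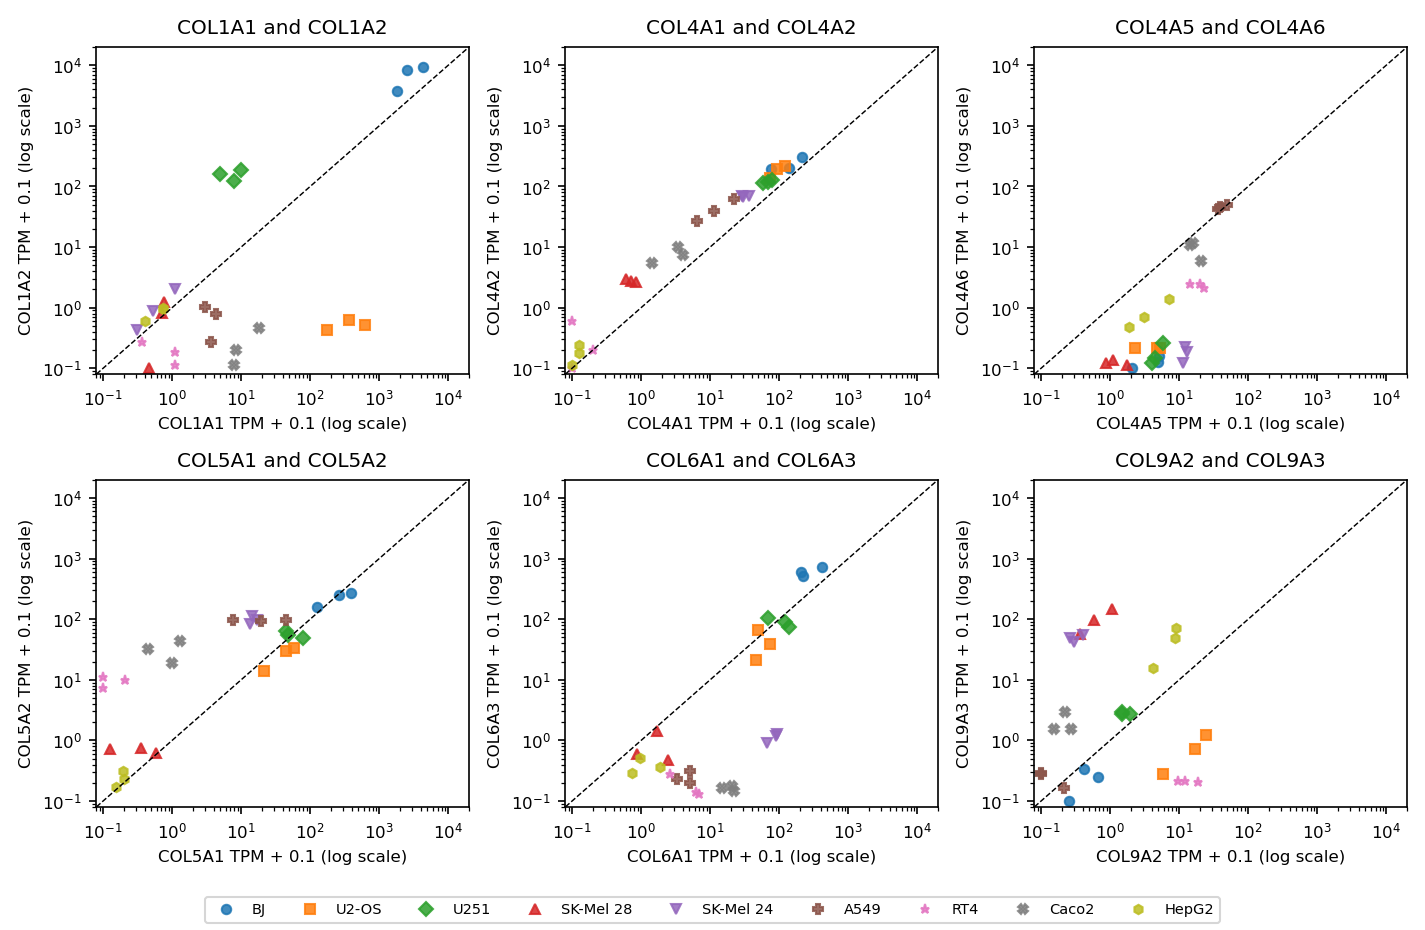
TPM + 0.1 of partner chains against each other on log axes, each panel a pair and each point a library marked by its cell line; the dashed diagonal marks equal levels. COL4A1 and COL4A2 rise together, with mean COL4A2 above mean COL4A1 in each line (1.63-fold in BJ and 3.25-fold in A549). For COL1A1 and COL1A2 the U2-OS libraries, with means of 384 and 0.427 TPM, lie far to the COL1A1 side. The U251 libraries, with means of 7.51 and 158 TPM, lie to the COL1A2 side.

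SK-Mel 28 and SK-Mel 24 share the tissue label skin and grew in the same medium with different serum, and their collagen sets differed. Of the 38 members, 5 were higher in SK-Mel 28 than in SK-Mel 24 (background 15.5%), 24 were lower (background 16.5%) and 9 were neither. The median log2 difference was -3.52 over members and 0 over all genes. Against the mean of the other lines, all 7 melanocyte markers were higher in SK-Mel 28, whereas in SK-Mel 24 4 of 7 were higher and MLANA was lower. The list summed to 11593 to 16544 TPM in SK-Mel 28 and 7003 to 9687 TPM in SK-Mel 24. The pigment gene PMEL had 8877 ± 2255 TPM in SK-Mel 28 and 3.10 ± 3.16 TPM in SK-Mel 24, and S100B, also an astroglial marker, had 1665 ± 192 TPM in SK-Mel 28 and 7822 ± 1439 TPM in SK-Mel 24. Of 8 fibroblast markers, 1 was higher and 3 were lower in SK-Mel 28, against 4 higher and 1 lower in SK-Mel 24. The summed fibroblast marker level was 38.7 to 51.6 TPM in SK-Mel 28 and 89.5 to 97.7 TPM in SK-Mel 24. The part of these markers in the collagen difference was not tested.

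The members lower in SK-Mel 28 covered most classes. COL8A1 fell furthest among those with counts in both lines, by 8.68 ± 0.40 on the log2 scale (adjusted p = 1.37e-14), followed by COL5A1 by 7.70 ± 0.73 (adjusted p = 3.91e-09) and COL5A2 by 7.23 ± 0.32 (adjusted p = 8.81e-15). The type VI chains COL6A1 and COL6A2 fell by 5.72 ± 0.47 and 5.44 ± 0.50, and the type IV chains COL4A1, COL4A2, COL4A4, COL4A3 and COL4A5 by 3.65 to 5.70. COL12A1 fell by 4.78 ± 0.34 and COL18A1 by 4.75 ± 0.51. COL9A1 had no count in the 3 SK-Mel 28 libraries and 297 counts in those of SK-Mel 24, and COL24A1 had none and 39. With a floor of 3 counts over the group, COL9A1 was at least 110.2-fold lower and COL24A1 at least 14.5-fold lower in SK-Mel 28, although DESeq2 did not call COL9A1 (adjusted p = 0.136).

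The 5 members higher in SK-Mel 28 were COL11A1 (7.52 ± 0.36, adjusted p = 2.75e-14), COL14A1 (2.73 ± 0.40, adjusted p = 4.15e-06), COL19A1 (2.59 ± 0.43), COL7A1 (1.96 ± 0.41) and COL9A2 (1.49 ± 0.57, adjusted p = 0.0332). COL7A1 in SK-Mel 28 consisted almost wholly of transcripts not annotated as coding, 99.5% ± 0.643 of its TPM. COL9A2 lost its call without any single SK-Mel 24 library (adjusted p = 0.0647 to 0.0859), and without SK-Mel 28 replicate 1 its log2 difference was 0.72. Of the lower members, COL2A1 lost its call without SK-Mel 24 replicate 1 (adjusted p = 0.124), COL5A3 without SK-Mel 24 replicate 3, SK-Mel 28 replicate 2 or SK-Mel 28 replicate 3 (0.0725 to 0.225), and COL11A2 without SK-Mel 24 replicate 1 or 3 or SK-Mel 28 replicate 1 or 2 (0.0739 to 0.129). COL9A3, shared by both lines, differed by 1.00 ± 0.39 (adjusted p = 0.0370), just under the 2-fold limit at 0.995. For COL1A1 the difference was -1.08 ± 0.75 (adjusted p = 0.253) and for COL1A2 -1.18 ± 0.71 (adjusted p = 0.181), both at low levels in either line.

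**Figure D4:**
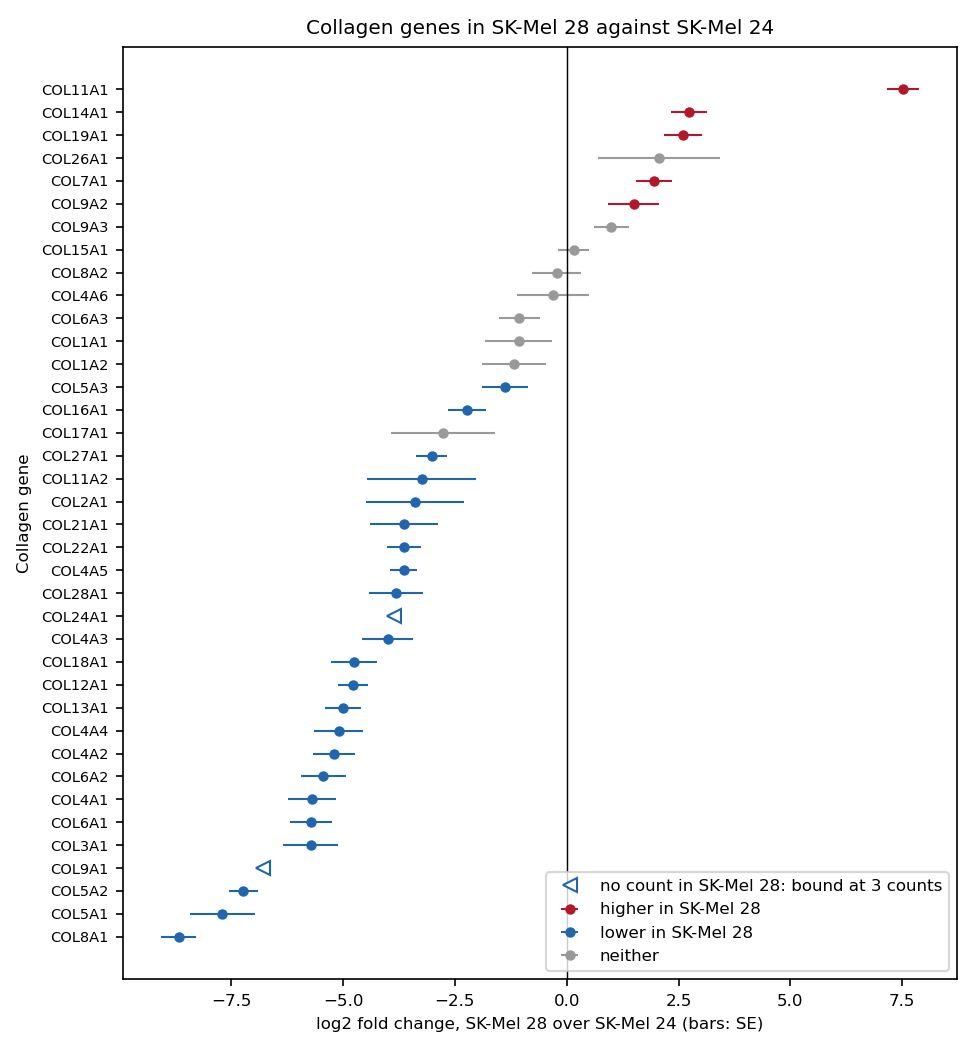
Log2 difference of SK-Mel 28 over SK-Mel 24 for the 38 tested collagen genes, ordered by size, with bars of 1 approximate SE (red, higher; blue, lower; grey, neither); open triangles mark COL9A1 and COL24A1, which had no count in SK-Mel 28 and are drawn at their bounds of -6.78 and -3.86. COL11A1 lies at 7.52 on the SK-Mel 28 side, and 24 genes were called lower.

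Transcript shares, as estimated by the authors' quantification, differed between lines as well. Of 26 members at 5 TPM or more in at least 2 lines, 13 had more than 1 dominant transcript among those lines. The same count was not made for other genes, so whether it is particular to collagens was not tested. ENST00000472056, a coding transcript of 8628 bases, made up 71.5% ± 9.40 of COL6A3 in BJ, whereas the coding ENST00000353578, of 9963 bases, made up 63.2% ± 2.74 in U2-OS and 61.7% ± 8.59 in U251. A shorter annotated transcript of COL18A1, ENST00000342220 of 3386 bases, held 87.1% ± 1.49 in HepG2 and 19.8% ± 7.33 in BJ. The BJ libraries had ENST00000400337, of 5436 bases, in the lead with 45.4% ± 10.6. A long annotated transcript of COL12A1, ENST00000322507 of 11723 bases, led in U2-OS at 60.8% ± 5.45, U251 at 64.1% ± 9.73 and SK-Mel 24 at 72.7% ± 1.25. A shorter COL12A1 transcript, ENST00000425443 of 3135 bases, led in BJ at 48.3% ± 18.7, RT4 at 52.9% ± 12.3 and Caco2 at 59.7% ± 14.4. These names refer to annotated transcripts and not to known protein forms. For COL4A5, ENST00000361603 of 6469 bases led in SK-Mel 24 with 66.1% ± 5.81 and ENST00000328300 of 6483 bases in A549 with 69.6% ± 3.23.

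Part of the collagen signal lay in transcripts not annotated as coding. ENST00000467819, a processed transcript of 993 bases at chr20:62836419-62841159, made up 76.4% ± 2.30 of COL9A3 in HepG2, or 34.9 ± 21.8 TPM, while the coding ENST00000343916, of 2485 bases, led in SK-Mel 28 at 50.8% ± 24.9 and in SK-Mel 24 at 65.5% ± 8.23. The coding share of COL9A3 in HepG2 was correspondingly small, since non-coding transcripts held 82.4% ± 2.66 in all. In BJ, the retained-intron transcript ENST00000464916 took 25.9% ± 15.1 of COL1A2, or 2142 ± 1567 TPM, and the retained-intron ENST00000470170 took 34.0% ± 16.3 of COL11A1. Non-coding transcripts also held 66.1% of COL7A1 in BJ and 62.8% in U251, and 65.6% of COL4A2 in Caco2. The sources used here do not say whether read strand was used in the counting, so reads of antisense neighbours could enter these values, and splitting reads between overlapping transcripts is an estimate.

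**Figure D5:**
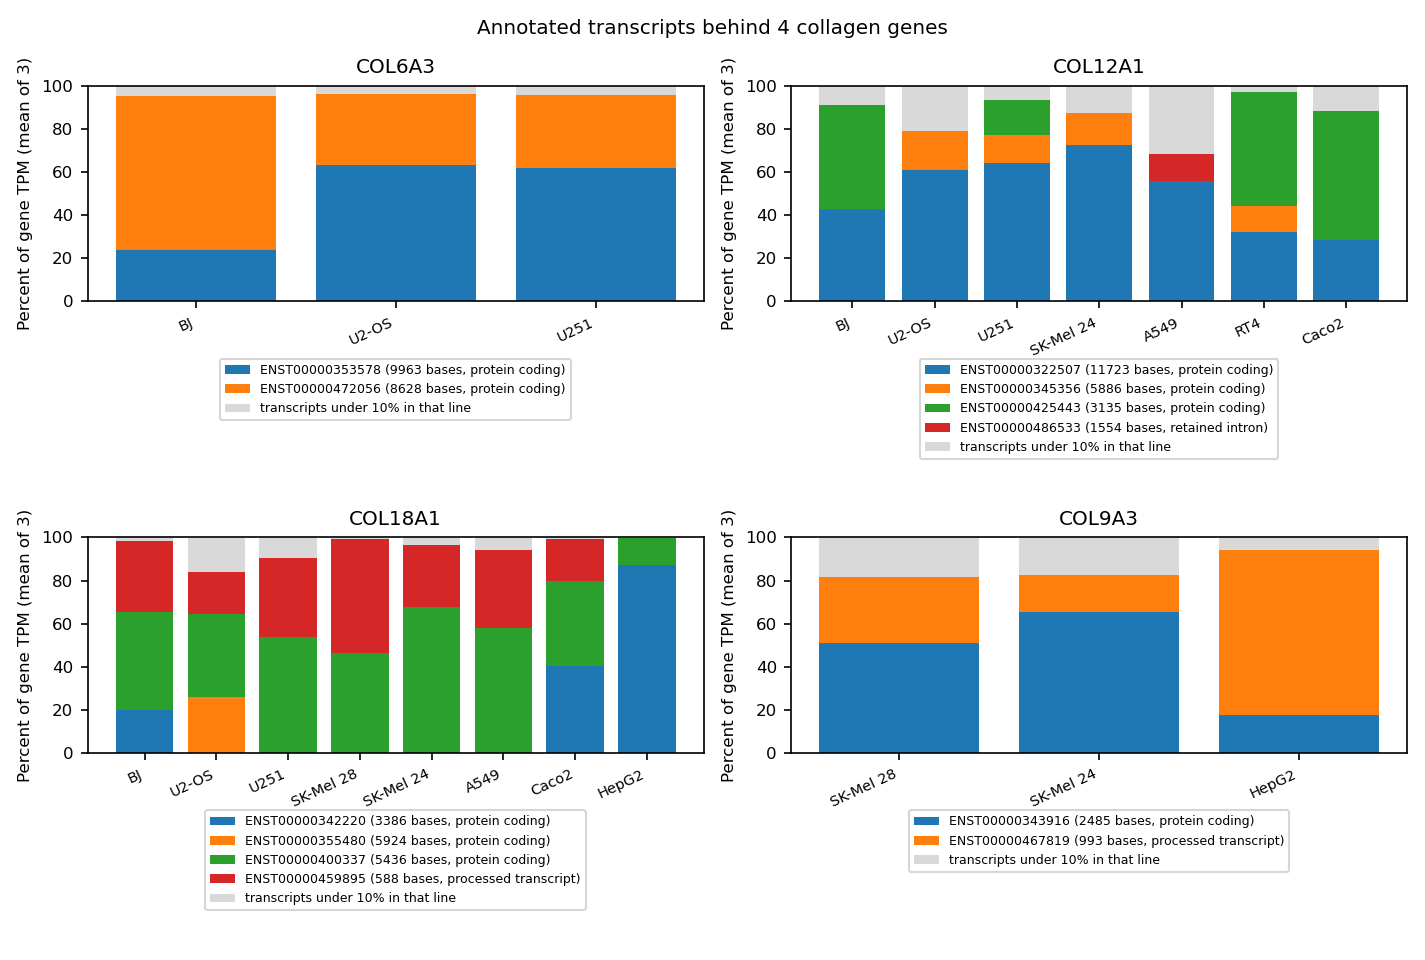
Share of the leading transcripts in the gene's TPM, in percent, by cell line for COL6A3, COL12A1, COL18A1 and COL9A3, stacked as means of 3 libraries, with transcripts under 10% in a line in grey. The leading transcript changes between lines for each gene, and for COL9A3 the processed transcript of 993 bases holds 76.4% in HepG2.

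Collagen chains need enzymes that hydroxylate proline and lysine, chaperones, proteases that trim the procollagen ends, and receptors that read the finished fibre. In BJ (background 20.1% higher and 13.1% lower over all genes), 6 of 10 tested prolyl hydroxylation genes were higher than the average of the other 8 lines and none was lower, 6 of 11 chaperone and secretion genes were higher and 2 lower, and 6 of 11 processing genes were higher and 1 lower. The median log2 differences of these lists in BJ were 1.38, 1.24 and 2.07, against -0.05 over all genes. BJ did not lead for the lysyl modification genes, with 2 of 5 higher, none lower and a median of 0.57. SK-Mel 24 (19% higher) and SK-Mel 28 (20.3% higher) each had 3 of these 5 higher, with medians of 1.33 and 1.17. RT4 (18.6% higher and 14.2% lower) had 1 higher and 5 lower of the prolyl hydroxylation genes. It also had 4 of 5 lysyl modification genes, 4 of 11 chaperones and 4 of 11 processing genes lower. The RT4 medians of these lists, in that order, were -1.56, -2.56, -0.70 and -1.85. For the chaperones HepG2 had the lower median, -0.85. U2-OS had 7 of 11 processing genes higher (25.3%) and none lower. Among 10 receptors tested, SK-Mel 24 had 6 higher (19%) and none lower, HepG2 had 1 higher (25.8%) and 7 lower (23.5%), and RT4 had 4 higher and 6 lower.

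Some of these genes varied as widely as the collagens. FKBP10, a chaperone of type I procollagen, averaged 495 ± 66.6 TPM in BJ and 0.186 ± 0.136 TPM in RT4. PCOLCE, which enhances removal of the C-terminal propeptide, had 560 ± 125 TPM in BJ and 100.4 ± 40.6 TPM in U2-OS, and ADAMTS2, which removes the N-terminal propeptide, had 68.0 ± 18.9 TPM in BJ and 4.54 ± 2.37 TPM in U2-OS. SPARC, a collagen-binding matrix protein, was highest in SK-Mel 24 at 7023 ± 1142 TPM, with 4942 ± 1929 TPM in BJ, 3609 ± 188 TPM in SK-Mel 28 and 1.39 ± 1.22 TPM in RT4. Its level in SK-Mel 28 stayed high where most collagens were low. MRC2, the receptor that takes up collagen for degradation, had 248.9 ± 35.8 TPM in BJ. It put the 9 lines in the same order as summed collagen TPM (Spearman correlation 1, Pearson 0.91). This was the highest Spearman value among the genes of these lists, and over the receptors the Pearson values ran from -0.38 to 0.95. Both levels are in TPM, which mitochondrial transcripts lower in HepG2. DDR2, a receptor kinase for fibrillar collagen, ranged from 75.5 ± 7.46 TPM in BJ to 0.0110 ± 0.00820 TPM in HepG2.

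Between SK-Mel 28 and SK-Mel 24, the processing genes PCOLCE and ADAMTS2 were lower in SK-Mel 28, by 3.74 ± 0.39 (adjusted p = 1.98e-08) and 2.74 ± 0.77 (adjusted p = 0.00501) on the log2 scale. PCOLCE2, from the same list, was higher in SK-Mel 28 by 3.48 ± 0.43 (adjusted p = 3.24e-07). PLOD2, a lysyl hydroxylase of collagen cross-linking, was lower by 1.27 ± 0.31 (adjusted p = 0.00138), and the receptors ITGA11 and MRC2 were lower by 4.42 ± 0.56 and 2.78 ± 0.32. DDR2 was higher in SK-Mel 28 (1.05 ± 0.25, adjusted p = 0.00118). Over all 47 tested genes of these lists, 8 were higher in SK-Mel 28 (background 15.5%), 12 lower (background 16.5%) and 27 neither, so the number higher was near the background.

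Libraries of one line varied in collagen level more in some lines than in others. Over members at 10 TPM or more, the median coefficient of variation between libraries was 41.1% in BJ, 41.6% in U2-OS, 18.4% in U251 and 14.4% in SK-Mel 24. In BJ, replicate 2 was the highest library for 15 of 19 such members and replicate 1 for 2 of them. In U2-OS the members split: replicate 1 was highest for 9 of 16, among them COL1A1, COL3A1 and COL5A1, whereas replicate 3 was highest for 6, among them COL4A1, COL4A2 and COL8A1. COL8A1 varied least in BJ, at 5.67%, and COL5A3 most, at 71.7%.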

How the data were processed

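RNA of 9 cell lines, 3 libraries each, was extracted with RNeasy and made into Illumina TruSeq Stranded mRNA libraries with poly-A selection, per the labels' protocols. Per the submitters' processing notes, kallisto 0.43.1, CASAVA 1.8 and the build GRCh38 were used; which transcript annotation and strand setting were chosen was not stated. The authors deposited, per library, an estimated count and a TPM value for each of 176241 transcripts. Here 159887 transcript IDs matched GENCODE 29, and the unmatched 9.28% took at most 3.06% of a library's counts. Estimated counts and TPM were summed to 34584 genes, and counts were rounded to whole numbers. R 4.3.3 and edgeR 4.0.16 gave the tests, by the robust quasi-likelihood method with TMM scaling and filterByExpr, in 1 fit of all 27 libraries with 17220 genes; the procedure was first tested on simulated data. Libraries of a line differed by more than sampling noise, so none was counted as a duplicate.

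The collagen members and all gene lists were chosen with earlier results of these data known, so none of their patterns is independent support. Library values are given for members with a mean of 20 TPM in some line or enriched in 1 line. Of each list of collagen biosynthesis and receptor genes at most 4 genes with the largest F statistic are named, with PCOLCE2 added beside PCOLCE. Some marker genes are named outside that rule, among them MLANA, PMEL and those listed at 0. Folds between chains are ratios of mean TPM without a pseudocount; the count of unequal pairs and the Pearson correlations between chains used log2(TPM + 0.1). Intervals and floors of 3 counts cover counting error only. Alternatives were DESeq2 1.42.0 as test and scaling, no filter, length-scaled TPM counts, a replicate block, a pseudocount of 1, TPM without mitochondrial transcripts, and each library left out in turn.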

Additional observations from a re-analysis of the deposited data

How the results depend on the processing

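No count, margin, difference or sum reversed its direction under any alternative run. Of the counts of members, 2 moved by more than 1.5 times under an alternative other than leaving out a single library: the members lower in BJ were 5 with length-scaled TPM counts, against 8, and the members enriched in 1 line were 9 without the BJ libraries, against 14. Leaving out each of the 27 libraries in turn gave 5 to 9 members lower in BJ and 13 to 16 enriched. The cause was not tested, and the shares over all genes were not counted under the alternatives. With protein-coding transcripts only, an alternative added after seeing the data like the one without BJ, the collagen sums were 985 TPM in U251, 823 TPM in SK-Mel 24, 171 TPM in SK-Mel 28, 315 TPM in A549, 94.2 TPM in RT4 and 51.6 TPM in HepG2, and 23 of 42 pairs were at least 4-fold unequal. Of the 42 log2 ratios behind that count, 18 moved by more than the spread between libraries with a pseudocount of 1 and 15 with protein-coding transcripts only, none changing direction. With a pseudocount of 1, COL1A1 over COL1A2 in U2-OS was 7.90 against 9.35, COL8A1 over COL8A2 in SK-Mel 24 7.32 against 9.28, and COL9A2 over COL9A3 in RT4 3.65 against 5.95. With protein-coding transcripts only, COL9A2 over COL9A3 in HepG2 was -0.04 against -2.46. Without mitochondrial transcripts the HepG2 sum was 218.1 TPM.

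Single members lost a call in few settings. COL9A2 in SK-Mel 28 against SK-Mel 24 lost it with length-scaled TPM counts (adjusted p = 0.0659), COL2A1 likewise (0.101), COL5A3 without the filter (0.0756), and COL11A2 with DESeq2 (0.0656). The numbers after P in the titles recur across lines, and 7 of 38 same-number pairs deviated together (correlation over 0.1, range -0.20 to 0.31). Between SK-Mel 24 and SK-Mel 28 the correlations were 0.109, 0.269 and 0.096 for the numbers 10, 9 and 8. The labels do not say what the numbers mean, and the main fit did not use them as pairs. Whether they pair the libraries of these lines is not settled by the correlations. With those numbers as a replicate block, 37 members differed over the lines, 13 were enriched, and 5 were higher and 26 lower in SK-Mel 28 than in SK-Mel 24. Under the block the COL9A1 margin had an adjusted p of 0.5998 and the COL21A1 margin a log2 value of 1.14 with an adjusted p of 1, so neither was called. Depth limits the lowest members: 6 could not be tested, and a line without a count for a member has a floor of 3 counts only.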
